A study of Mus musculus with 15 samples.

Results

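Rpl11, Fuca1, Pdik1l, Asap3, Mtfr1l and Runx3 are 6 mouse genes that lie near Stmn1, the gene of stathmin, on chromosome 4. They were chosen by position and because arrays of stathmin-lacking cells had been seen to read differently from arrays of stathmin-carrying cells at some of their probes. Every probe that the array files name for these genes, under the current or an older symbol, was taken: 11 of the 41174 probes, and all 11 were among the 27700 bright enough to be tested. The bright Rpl11 probe read lower against the pooled reference on every stathmin-lacking array, and 1 Pdik1l probe read higher on every one. In Rpl11 most of that difference lay in the reference channel, and in Pdik1l almost all of it lay in the sample channel.

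RNA came from mouse embryonic fibroblasts, the connective tissue cells that grow out of a minced embryo. The embryos were taken at day 13.5, and the cells were at passage 3, dense, and without serum for 24 hours. There were 4 arrays of stathmin knock-out cells, 3 of cells lacking both p27 and stathmin (double knock-out), 4 of wild type cells and 4 of p27 knock-out cells. The first 7 arrays are called stathmin-lacking and the other 8 stathmin-carrying; both sets hold p27-lacking and p27-carrying cells. All genotypes carry the strain label C57B6. The labels used here do not say how either allele was made, or in which strain. Each array of this 2-colour Agilent type set one sample, labelled with Cy5, against a pool of fibroblast RNA labelled with Cy3, with no dye swap. Wherever a ratio is given, it is the log2 of sample over pooled reference, after background correction and loess within the array. A difference is the mean of one set of arrays minus that of the other on the same scale.

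Stathmin binds tubulin and makes microtubules less stable, and p27, the product of Cdkn1b, inhibits cyclin-dependent kinases and has been reported to bind stathmin. The 6 neighbours share no pathway. Rpl11 encodes a protein of the large ribosomal subunit that, when free of ribosomes, binds Mdm2 and so protects p53. Pdik1l encodes a protein kinase named after the PDLIM1-interacting kinase, and Asap3 encodes a GTPase-activating protein for Arf, a family of small GTPases of membrane traffic and the actin cortex. Fuca1 encodes the lysosomal enzyme that removes fucose from glycoproteins and glycolipids. Runx3 encodes a Runt-domain transcription factor best known from lymphocytes, cartilage and sensory neurons, and Mtfr1l is a relative of the mitochondrial fission regulator Mtfr1.

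In RefSeq coordinates of GRCm38.p6, Stmn1 spans chr4:134468320-134473843. Measured between gene starts, Pdik1l (chr4:134275002-134287846) lies 0.193 Mb before Stmn1 and is the only one of the 6 on that side. Mtfr1l (chr4:134525555-134535387) follows 0.0572 Mb after it and Runx3 (chr4:135120645-135177990) 0.652 Mb after it. Fuca1 (chr4:135920726-135940300) lies at 1.45 Mb, Rpl11 (chr4:136049354-136053393) at 1.58 Mb and Asap3 (chr4:136206350-136246577) at 1.74 Mb. The outer 3 genes are thus near one another, and farther from Stmn1 than the rest.

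Of the 6 genes, Rpl11, Pdik1l and Asap3 had the largest differences, and Fuca1 had the ratios most like those of Asap3. For these 4 the 250 bases before a RefSeq transcript start are shown, on the gene's own strand and read 5′ to 3′, to set the starts of genes that read alike or opposite side by side. Capitals mark a GC box (GGGCGG) or a CCAAT box (CCAAT), each searched on both strands. The windows are chr4:136053394-136053643 on the minus strand for Rpl11, chr4:134287847-134288096 on the minus strand for Pdik1l (the outer of its 2 starts), chr4:136206115-136206364 on the plus strand for Asap3 and chr4:135920476-135920725 on the plus strand for Fuca1.
Rpl11: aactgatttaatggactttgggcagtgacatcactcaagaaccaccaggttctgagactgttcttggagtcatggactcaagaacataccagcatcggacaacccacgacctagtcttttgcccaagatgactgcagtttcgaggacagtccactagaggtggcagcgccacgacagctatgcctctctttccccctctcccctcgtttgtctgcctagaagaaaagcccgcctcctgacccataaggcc
Pdik1l: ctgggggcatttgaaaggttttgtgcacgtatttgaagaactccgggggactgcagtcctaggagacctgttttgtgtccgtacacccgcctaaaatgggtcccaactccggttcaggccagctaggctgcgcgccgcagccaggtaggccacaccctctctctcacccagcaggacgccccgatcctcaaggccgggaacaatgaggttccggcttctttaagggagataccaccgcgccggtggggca
Asap3: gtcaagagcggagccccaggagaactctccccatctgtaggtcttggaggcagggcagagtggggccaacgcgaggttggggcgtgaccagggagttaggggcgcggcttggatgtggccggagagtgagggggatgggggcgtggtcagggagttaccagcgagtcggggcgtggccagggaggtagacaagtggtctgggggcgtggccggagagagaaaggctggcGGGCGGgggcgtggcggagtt
Fuca1: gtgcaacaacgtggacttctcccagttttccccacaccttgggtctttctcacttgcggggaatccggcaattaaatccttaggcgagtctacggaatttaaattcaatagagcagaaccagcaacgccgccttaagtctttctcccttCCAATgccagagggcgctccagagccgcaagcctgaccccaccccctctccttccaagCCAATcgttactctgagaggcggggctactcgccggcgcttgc
Fuca1 held 2 CCAAT boxes, Asap3 held 1 GC box, and the Rpl11 window and the Pdik1l window shown held neither motif. The window of the other Pdik1l start, chr4:134287254-134287503 on the minus strand, is not shown; it held 1 GC box and 1 CCAAT box, with 77.6% G and C. Of 32851 RefSeq promoter windows of the same length, 33.8% held a CCAAT box and 32.7% a GC box. A TATA box (TATAAA), an E-box (CACGTG) and the ETS motif CCGGAAG were searched in the same way and were in none of these 5 windows, against 12.4%, 6.02% and 6.91% of all windows. The G and C content was 52.4% in the Rpl11 window, 60% in the Pdik1l window shown, 68% in Asap3 and 55.6% in Fuca1, with a median of 52.4% over all windows. A match is a run of letters and not a measured binding site.

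The labels were checked at the targeted genes. The Stmn1 probe A_52_P319161 had ratios of -2.98 to -2.64 on the 7 stathmin-lacking arrays and of 0.41 to 1.49 on the 8 stathmin-carrying arrays. The other Stmn1 probe, A_51_P495641, overlapped between them, with a difference of -0.42 (SE 0.21). The brightest Cdkn1b probe had a difference of -0.62 between p27-lacking and p27-carrying arrays (SE 0.27, adjusted p = 1.00 in limma), and the genotypes overlapped. A dim Cdkn1b probe, A_51_P169173, was well above background in the sample channel on only 3 arrays and was not tested. Its ratio was -0.20 to -0.08 on p27-lacking arrays. It was -0.13 on stathmin knock-out array 4 and 0.07 to 0.53 on the other p27-carrying arrays. The third probe, A_52_P673863, was well above background on 2 arrays, and its ratios overlapped. Median spot signals were 251.9 to 452.4 units in the sample channel and 339.6 to 400 in the reference channel. Each of 4 slides held 1 array of each genotype, except 1 slide without a double knock-out array, and a genotype had the same position on every slide, so that genotype and position cannot be told apart. Wild type arrays 3 and 4 deviated from their genotype's mean alike (r = 0.726 over probes, against at most 0.503 for any other pair), so the differences were also taken with both averaged into 1. The fibroblast marker list was measured in full, 12 of 12 genes, and none of them passed between stathmin-lacking and stathmin-carrying arrays.

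Over all tested probes, 3 of 27669 passed an adjusted p of 0.05 in limma between stathmin-lacking and stathmin-carrying arrays (0.0108%). They were probes of Stmn1, Rpl11 and Gadd45gip1, so 1 of the 11 probes described here was among them. Stathmin knock-out against wild type gave 2 of 27677 (0.00723%), Stmn1 and the same Rpl11 probe, and double against p27 knock-out gave Stmn1 alone among 27692 (0.00361%). Since the genes were chosen on these contrasts, their values on them are a description and carry no test. Of the 11 probes, 7 had a higher and 4 a lower mean on stathmin-lacking arrays, with a median difference of 0.34, against -0.0032 over all tested probes. The difference was at least 1 in size at 3 of them (Rpl11, Pdik1l and Asap3), and at 40 of all 27669 (0.145%).

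**Figure D1:**
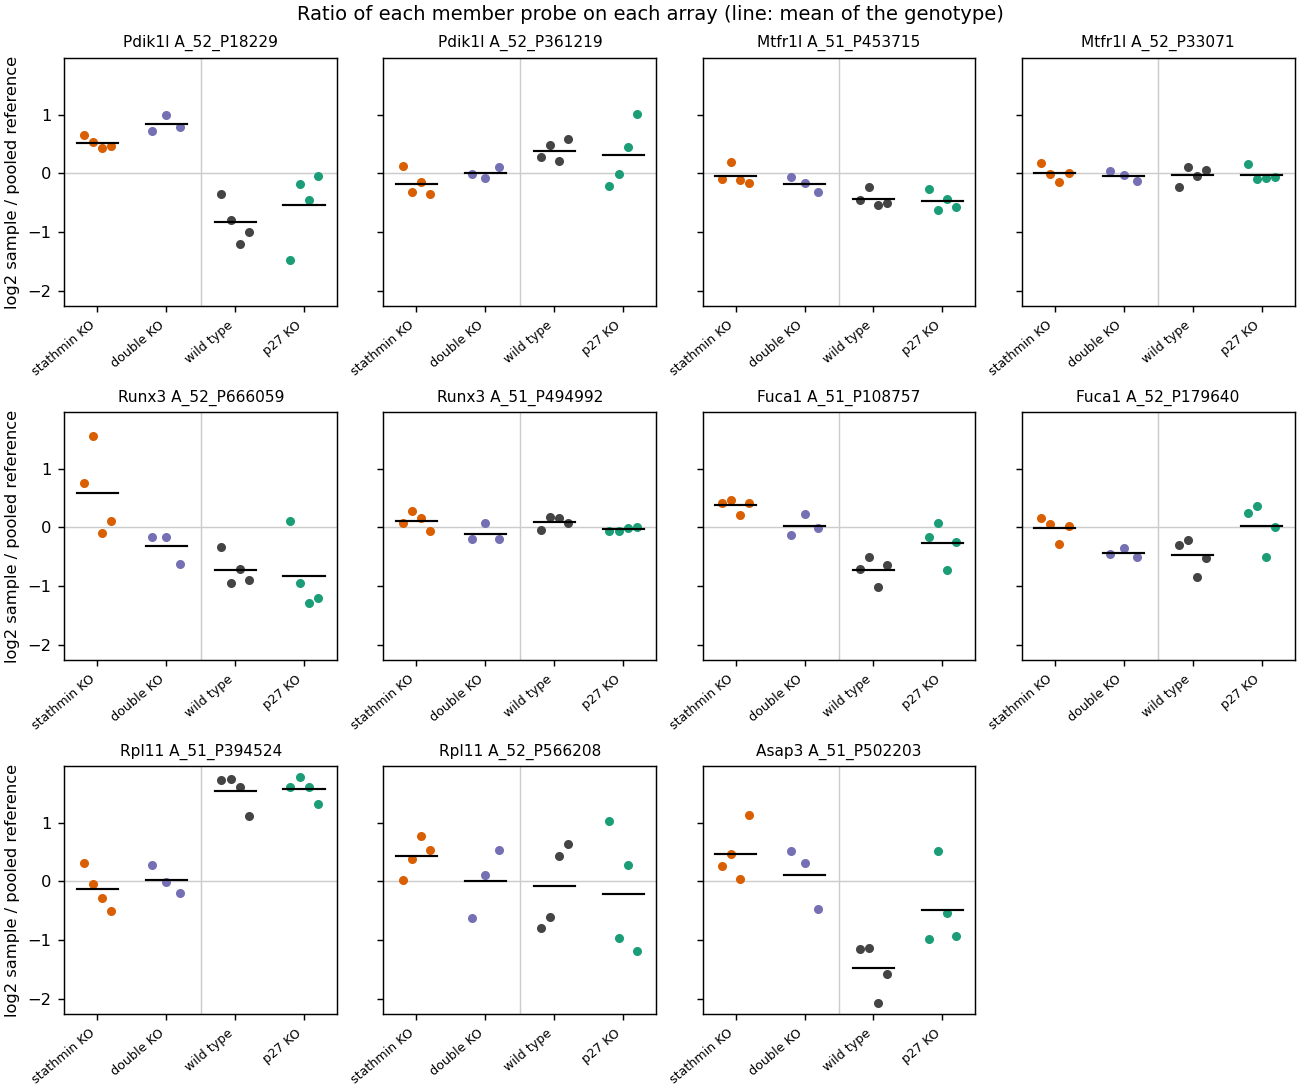
Log2 ratio of sample over pooled reference (vertical axes, one scale) for the 11 probes of the 6 genes, one panel a probe, in order along the chromosome, the brighter probe of a gene first. Each point is an array and each line a genotype mean, with the genotypes lacking stathmin left of those carrying it; the groups on either side do not overlap for Pdik1l A_52_P18229 and Rpl11 A_51_P394524.

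Rpl11 has 2 probes. The first, A_51_P394524, made to the reference mRNA, is brighter than 99.6% of tested probes. Its ratio was 0.31, -0.05, -0.28 and -0.51 in stathmin knock-out cells and 0.28, -0.01 and -0.20 in double knock-out cells, against 1.72, 1.74, 1.61 and 1.12 in wild type cells and 1.60, 1.77, 1.60 and 1.32 in p27 knock-out cells. All 7 stathmin-lacking arrays were below all 8 stathmin-carrying ones, which 5 of the 26772 probes measured on every array did (0.0187%), with means of -0.07 ± 0.30 (SD, n = 7) and 1.56 ± 0.23 (SD, n = 8). The difference was -1.62 (SE 0.14), the seventh largest in size of all tested probes. It was -1.68 (SE 0.20) for stathmin knock-out minus wild type and -1.55 (SE 0.21) for double minus p27 knock-out. Within slides it lay between -1.89 and -1.41 for the first pair and between -1.61 and -1.33 for the second. With wild type arrays 3 and 4 averaged, the difference over all arrays was -1.65.

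Both channels of this Rpl11 probe moved. After loess and scaling of intensities between arrays, the sample channel read 18.20, 18.01, 17.98 and 17.79 in stathmin knock-out cells and 18.18, 17.95 and 17.79 in double knock-out cells, against 18.75, 18.38, 18.35 and 18.40 in wild type cells and 18.59, 18.49, 18.40 and 18.40 in p27 knock-out cells (log2 signal). The lacking and carrying arrays did not overlap, as at 6 of 26772 probes in this channel (0.0224%), and the difference was -0.49. The reference channel, labelled on every array as RNA of pooled fibroblasts, read 17.89, 18.06, 18.26 and 18.30 in stathmin knock-out hybridisations and 17.90, 17.96 and 17.99 in those of double knock-out cells, against 17.04, 16.64, 16.74 and 17.28 on wild type arrays and 16.99, 16.71, 16.80 and 17.08 on p27 knock-out arrays. Here the lacking arrays were all higher, again without overlap (4 of 26772 probes, 0.0149%), and the difference was 1.13, more than 2 times as large in size as that of the sample channel.

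The raw signals of the spot differed in the same directions before any normalization, without overlap in the reference channel but with overlap in the sample channel. The raw reference signal was 156000 to 225000 units on stathmin-lacking arrays and 61500 to 123000 on stathmin-carrying arrays. The raw sample signal was 353000 to 473000 units on stathmin-lacking arrays and 450000 to 613000 on stathmin-carrying arrays. The sum of both channels was 536000 to 628000 with a median of 595000 on stathmin-lacking arrays, and 513000 to 717000 with a median of 598000 on stathmin-carrying arrays. On all 15 arrays both channels of this spot were taken from the scan at low gain and scaled up, and the sample channel was marked saturated on 1 array, p27 knock-out replicate 4. Over the 109 brighter probes, reference differences ran from -0.46 to 0.33 and sample differences from -0.11 to 0.19.

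Reference differences of this size were rare. Only 5 of 27669 probes had one of at least 1 in size (0.0181%), and 43 had one of at least 0.5 (0.155%). In the reference channel alone, limma called 1 probe of 27669 (0.00361%), this one of Rpl11, and in the sample channel alone 1 (0.00361%), the Stmn1 probe. The genes were chosen on this contrast, so the Rpl11 call is a description and carries no test. Among the 43 probes, the sample channel moved in the same direction as the reference in 40 and against it in 3. Those 3 were the Rpl11 probe, the probe of an Rpl11-like transcript and a probe of Vapb, which had a reference difference of 0.62 and a sample difference of -0.17. The reference channel of the other 10 probes of the 6 genes differed by -0.08 to 0.10.

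The Rpl11-like probe, A_52_P160095, is described in the files as similar to 60S ribosomal protein L11 and is no probe of the 6 genes; it was picked after its values were seen. Its ratio was 0.56, -0.48, -0.91 and -0.82 in stathmin knock-out cells and 0.40 and -0.88 in double knock-out cells, where 1 of 3 spots was marked an outlier and left out. It was 1.91, 1.36, 1.37 and 1.00 in wild type cells and 1.66, 1.5, 1.34 and 1.19 in p27 knock-out cells. The difference was -1.74 (SE 0.27), made up of -0.81 in the sample channel and 0.94 in the reference channel. Over the 14 arrays that measured both, its ratio correlated with that of the bright Rpl11 probe at r = 0.959, its reference channel at 0.955 and its sample channel at 0.878. These correlations run over arrays that share a genotype difference at both probes. The array cannot tell transcripts of Rpl11 from those of a near-identical copy where probes match both, and the letters of the probes were not used here.

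**Figure D2:**
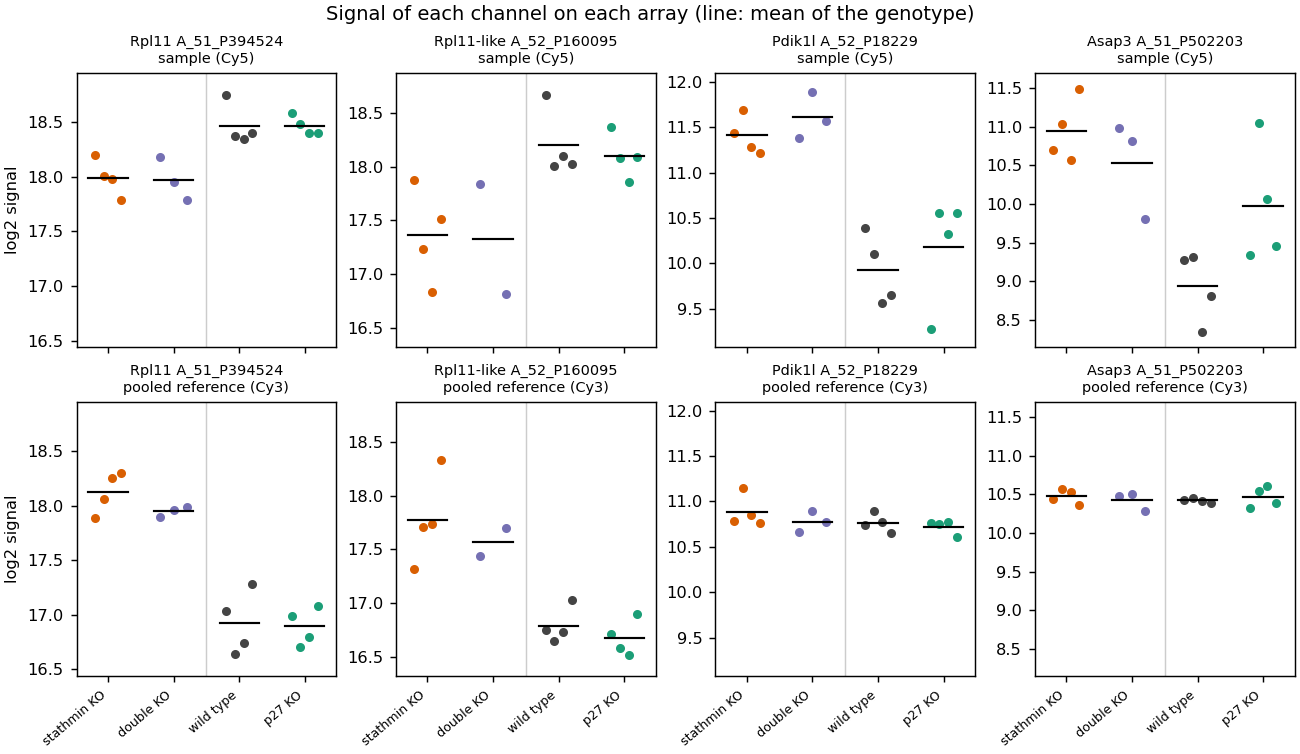
Log2 signal of the sample channel (top) and the pooled reference channel (bottom) on each array, on one scale per probe, for the bright Rpl11 probe, the Rpl11-like probe and 1 probe each of Pdik1l and Asap3. The genotypes lacking stathmin stand left; the reference points of Rpl11 are at 17.89 to 18.30 and at 16.64 to 17.28 on the 2 sides, while those of Asap3 lie together.

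The second Rpl11 probe, A_52_P566208, was made to a cDNA clone (AK014593) and did not follow the first. Its ratio was 0.02, 0.38, 0.77 and 0.54 in stathmin knock-out cells and -0.62, 0.10 and 0.53 in double knock-out cells, against -0.79, -0.61, 0.43 and 0.64 in wild type cells and 1.02, -0.97, 0.28 and -1.18 in p27 knock-out cells. Its difference was 0.36 (SE 0.35) with overlapping arrays, and its r with the first probe was -0.401 over 15 arrays. The second probe was higher in only 4 of 7 within-slide pairs, so it showed no clear direction of its own. It was also much dimmer, with a mean log2 intensity of 10.3 against 17.8 at the first probe. No direction for Rpl11 as a gene is drawn from the 2 probes.

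Pdik1l has 2 probes with differences of opposite sign. A_52_P18229, the brighter, had ratios of 0.65, 0.54, 0.43 and 0.46 in stathmin knock-out cells and of 0.72, 0.99 and 0.79 in double knock-out cells, against -0.35, -0.79, -1.20 and -1.0 in wild type cells and -1.48, -0.19, -0.45 and -0.05 in p27 knock-out cells. Every stathmin-lacking array stood above every stathmin-carrying one. Of the 26772 probes measured on every array, 6 had ratios that did not overlap between these sets (0.0224%). This probe was the only one higher on stathmin-lacking arrays (0.00374%), and the 5 lower ones were of Stmn1, Rpl11, Gadd45gip1, Clgn and Scml2.

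The difference at this Pdik1l probe was 1.37 (SE 0.20). It was 1.36 (SE 0.27) for stathmin knock-out minus wild type and 1.38 (SE 0.29) for double minus p27 knock-out, so with and without p27 the values differed by less than their errors. Within slides it lay between 1.00 and 1.63 for the first pair and between 0.84 and 2.20 for the second. The sample channel gave 1.46 and the reference channel 0.09. The raw sample signal was 2800 to 4470 units on stathmin-lacking arrays and 641 to 1950 on stathmin-carrying arrays, with no low-gain scaling or saturation.

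The dimmer Pdik1l probe, A_52_P361219, had ratios of 0.12, -0.32, -0.15 and -0.36 in stathmin knock-out cells and of -0.01, -0.09 and 0.11 in double knock-out cells, against 0.27, 0.48, 0.21 and 0.58 in wild type cells and -0.22, -0.02, 0.44 and 1.01 in p27 knock-out cells. Its difference was -0.43 (SE 0.16), and the sets overlapped. The 2 Pdik1l probes correlated at r = -0.345 over 15 arrays, though both were designed to the same accession. Both lie on a gene with more than 1 RefSeq start, and which transcripts each reads was not tested.

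Asap3 has 1 probe, A_51_P502203, listed in the files under the older symbol Ddefl1. Its ratio was 0.26, 0.46, 0.04 and 1.13 in stathmin knock-out cells and 0.51, 0.31 and -0.48 in double knock-out cells, against -1.15, -1.14, -2.07 and -1.58 in wild type cells and -0.99, 0.52, -0.54 and -0.93 in p27 knock-out cells. The stathmin knock-out arrays were all above the wild type ones, while double and p27 knock-out overlapped. The difference was 1.28 (SE 0.26), with 1.96 (SE 0.36) for stathmin knock-out minus wild type and 0.60 (SE 0.39) for double minus p27 knock-out. It was above 0 in all 7 within-slide pairs. The reference channel differed by 0.0056, so the sample channel carried the difference, with 1.28.

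Fuca1 was read by 2 bright probes. As at the bright Rpl11 probe, their signals were mostly scaled up from the scan at low gain. This held for both channels of A_52_P179640 on all 15 arrays. At A_51_P108757 it held for the sample channel on 14 arrays and the reference channel on 15. A_51_P108757 had ratios of 0.42, 0.46, 0.21 and 0.41 in stathmin knock-out cells and of -0.14, 0.23 and -0.02 in double knock-out cells, against -0.72, -0.51, -1.02 and -0.65 in wild type cells and -0.17, 0.07, -0.73 and -0.25 in p27 knock-out cells. In total 5 of the 7 stathmin-lacking arrays (4 without stathmin only, 1 without both genes) were above all stathmin-carrying arrays. The difference was 0.70 (SE 0.12), with 1.10 (SE 0.17) for stathmin knock-out minus wild type and 0.29 (SE 0.18) for double minus p27 knock-out. A_52_P179640 had ratios of 0.15, 0.05, -0.29 and 0.02 in stathmin knock-out cells and of -0.45, -0.35 and -0.50 in double knock-out cells, against -0.31, -0.21, -0.85 and -0.53 in wild type cells and 0.24, 0.36, -0.51 and 0.01 in p27 knock-out cells. It was 0.45 (SE 0.19) higher for stathmin knock-out minus wild type, and the double minus p27 knock-out difference was -0.46 (SE 0.21), so that over all arrays the difference was near 0 (-0.0020, SE 0.14). The 2 probes correlated at r = 0.627, and in both stathmin knock-out cells averaged above wild type cells.

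Runx3 was dim on these arrays, with mean log2 intensities of 8.79 and 8.52 at its 2 probes, at the 29.5 and 26.5 percentiles of tested probes. A_52_P666059 had ratios of 0.75, 1.55, -0.09 and 0.11 in stathmin knock-out cells and of -0.16, -0.16 and -0.63 in double knock-out cells, against -0.33, -0.95, -0.72 and -0.90 in wild type cells and 0.11, -0.95, -1.29 and -1.21 in p27 knock-out cells. The difference was 0.91 (SE 0.26), and the spread within stathmin knock-out cells was the widest of the 4 genotypes. Only 2 of the 7 stathmin-lacking arrays, both of stathmin knock-out cells, were above all stathmin-carrying ones. A_51_P494992 was flat, with a difference of -0.02 (SE 0.08) and ratios of -0.20 to 0.27 on stathmin-lacking arrays and of -0.07 to 0.17 on stathmin-carrying arrays.

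Mtfr1l lies closest to Stmn1 and showed small differences at moderate to high signal. A_51_P453715 had ratios of -0.10, 0.19, -0.12 and -0.16 in stathmin knock-out cells and of -0.07, -0.17 and -0.32 in double knock-out cells, against -0.45, -0.23, -0.54 and -0.51 in wild type cells and -0.27, -0.63, -0.44 and -0.58 in p27 knock-out cells. Of the 7 stathmin-lacking arrays, 6 were above all stathmin-carrying ones, and the difference of 0.34 (SE 0.09) was above 0 in all 7 within-slide pairs. Its sample channel was scaled up from the scan at low gain on 10 arrays, and its reference channel on no array. The 10 were all 7 stathmin-lacking arrays, wild type array 2 and p27 knock-out arrays 3 and 4. The scan gain thus went largely with genotype at this probe, and its part in the difference was not tested. A_52_P33071 gave 0.0041 (SE 0.09), with ratios of -0.15 to 0.17 on stathmin-lacking arrays and of -0.24 to 0.16 on stathmin-carrying arrays. In none of the 5 genes with 2 probes did both probes move alike over all arrays. The signs were opposite in Pdik1l, and also in Rpl11, where the second probe's difference was about as large as its SE. In Fuca1, Runx3 and Mtfr1l 1 probe of the pair had a difference near 0.

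**Figure D3:**
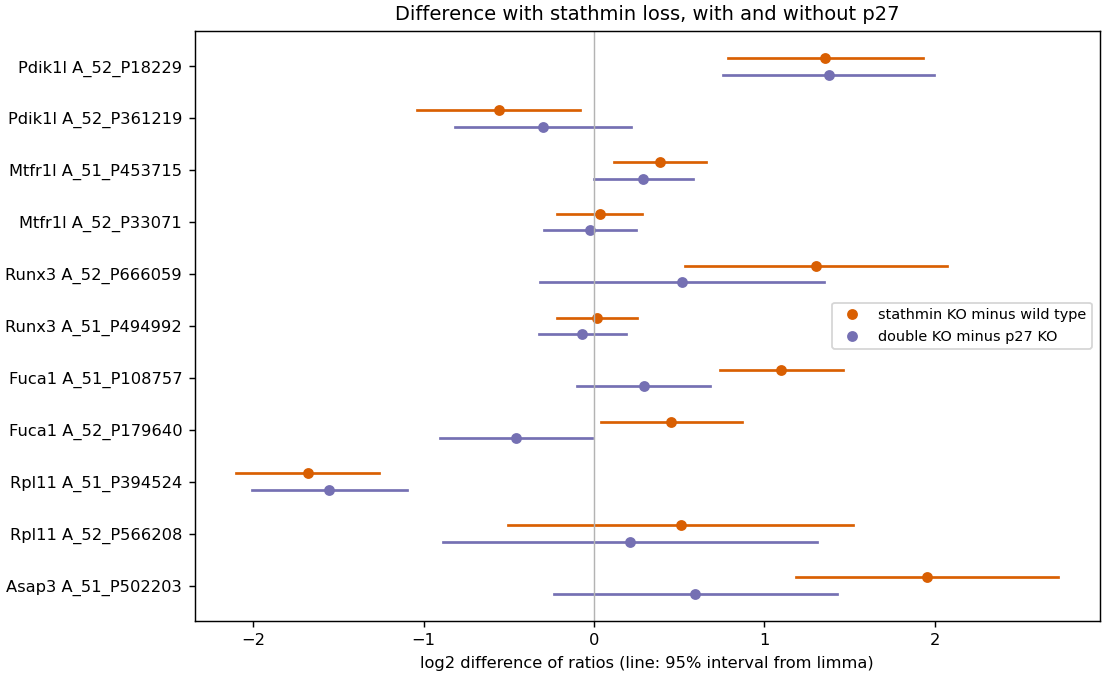
Log2 difference of ratios with stathmin loss (horizontal axis) for the 11 probes, as stathmin knock-out minus wild type (orange, above) and double minus p27 knock-out (violet, below). Lines are 95% intervals from limma for the difference of the genotype means. Since the genes were chosen on these contrasts, the intervals are a description and are not read as a test. Both points of Rpl11 A_51_P394524 and Pdik1l A_52_P18229 lie close together, at -1.68 and -1.55 and at 1.36 and 1.38, while those of Asap3 and Fuca1 lie apart.

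The loss of p27 was not used to choose the genes and was tested. None of the 11 probes passed between p27-lacking and p27-carrying arrays in limma, and neither did any of the 27669 tested (0%). At an unadjusted p of 0.05, 0 of the 11 and 2.37% of all probes would have been called. The smallest p among these probes was at Runx3 A_51_P494992 (0.0595 in limma; adjusted p = 1.00), where the p27 difference was -0.17 (SE 0.08). The other Runx3 probe differed by -0.50, with a 95% interval of -1.07 to 0.06. The bright Rpl11 probe differed by 0.09 (95% interval -0.22 to 0.40) and the brighter Pdik1l probe by 0.30 (-0.12 to 0.72). The median p27 difference of the 11 probes was 0.04, against -0.0034 over all probes.

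Whether the difference with stathmin loss depended on p27 was asked by the interaction, double minus p27 knock-out less stathmin knock-out minus wild type. No probe passed it in limma, neither of the 11 nor of all 27669 (0%), with the lowest adjusted p at 0.682 among the 11; at an unadjusted p of 0.05 it was 3 of the 11 and 7.3% of all probes. The stathmin knock-out and wild type arrays were among those on which the genes had been chosen, so these values are not independent of the choice. The interaction was -1.36 (SE 0.53) for Asap3 and -0.81 (SE 0.25) and -0.91 (SE 0.28) for the 2 Fuca1 probes, and 0.13 (SE 0.29) for the bright Rpl11 probe and 0.02 (SE 0.39) for the brighter Pdik1l probe.

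The other genes around Stmn1 were taken by position alone. Within 2 Mb of Stmn1, 101 further probes of 71 genes had a value in every genotype. None passed in limma between stathmin-lacking and stathmin-carrying arrays, against 0.0108% of all probes. At an unadjusted p of 0.05, 10 of the 101 were called (9.9%), 5 higher and 5 lower, against 1.24% of all probes. From 2 to 5 Mb it was 0 of 114 probes, and from 5 to 20 Mb 9 of 478 (1.88%). The median size of the difference was 0.104 within 2 Mb, 0.0676 from 2 to 5 Mb and 0.0866 over all probes. The higher share within 2 Mb was not tested as a set, and unadjusted calls of single probes are not findings.

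The neighbours with the smallest p that are described here were of mixed direction and function. Rcan3, a regulator of calcineurin, differed by -0.56 at 1 of its 2 probes. E2f2, a transcription factor of the cell cycle, differed by -0.57, and Pithd1 by 0.37. Tcea3, an elongation factor of RNA polymerase II, differed by -1.16 and -1.14 at 2 probes, 1.78 Mb after Stmn1 and next to Asap3. Cep85, a centrosomal protein, differed by 0.41. The adjusted p was 1.00 for each of these in limma, and the reference channel differed by -0.08 to 0.06. The probes nearest to the 2 Mb limit had small values: Luzp1, just inside it, differed by -0.04 and 0.04, and Med18, just outside it on the other side, by -0.09 and 0.05.

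**Figure D4:**
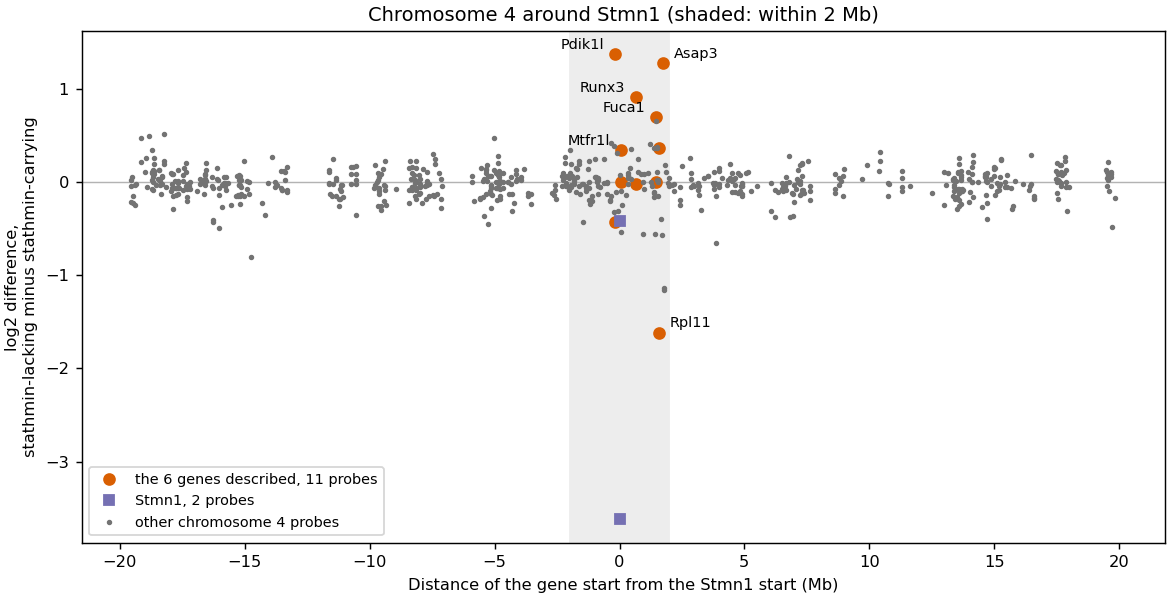
Log2 difference between stathmin-lacking and stathmin-carrying arrays (vertical axis) of each tested chromosome 4 probe against the distance of its gene start from that of Stmn1 in Mb (horizontal axis, up to 20 Mb on either side; 2 Mb shaded). Orange points are the 11 probes described, violet squares the 2 Stmn1 probes at -3.62 and -0.42, and grey points all others; the Rpl11 point at -1.62 and the Tcea3 points at -1.16 and -1.14 are the lowest beside Stmn1 in the shaded band.

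For the brightest tested probe of each of the 6 genes, the 3 probes of other genes with the closest ratios were looked up. Only probes measured on all 15 arrays were compared. For Stmn1 the probe was A_52_P319161, taken because it read lowest on stathmin-lacking arrays, and not the brighter A_51_P495641. Among these, Rpl11 was closest to the Stmn1 probe (r = 0.948), and Stmn1 was closest to it in turn. The Rpl11-like probe was measured on 14 arrays and so was not compared, though its r with the Rpl11 probe was higher, at 0.959. Fuca1 and Asap3 were each other's closest (r = 0.863). Pdik1l was closest to Efcab7 (r = 0.919), far off on the same chromosome. Mtfr1l was closest to Runx3 (r = 0.843), and Runx3 to Khdrbs2 on chromosome 1 (r = 0.915). These values describe 15 arrays that share the genotypes on which the genes were chosen.

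Genes related to the 6 in function were taken from lists, each gene at its brightest tested probe. Of 10 partners of Rpl11 in ribosome assembly and the p53 response, such as Rpl5, Mdm2 and Trp53, none passed in limma for stathmin or p27 loss; their median stathmin difference was 0.04, with 6 above 0, and the smallest p was at Rps7 (-0.24) and Mdm2 (0.39). None of 15 lysosomal glycosidases and related hydrolases passed (median 0.02, 11 above 0), where Aga, which cleaves asparagine-linked sugars, differed by 0.36. None of 20 Arf GTPase-activating proteins passed (median -0.01, 10 above 0), among them Acap2 (0.48) and Agap1 (-0.31). None of 10 mitochondrial fission and fusion genes passed (median 0.02, 5 above 0), nor did any of 7 Runx factors and partners (median -0.12, 1 above 0), nor Stk35 and Pdlim1. At an unadjusted p of 0.05, 1 of these 64 genes was called for stathmin loss (1.56%, Aga), against 1.24% of all probes. For p27 loss it was 2 of 64 (3.12%), Arap3 (1.10) and Runx2 (-0.49), against 2.37% of all probes, so both shares were near those of all probes.

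Markers of other cell types were set beside these values. Of the macrophage and blood list, 11 of 12 genes were tested, and its mean ratio per array was -2.03 to 1.33 on stathmin-lacking and -2.55 to 2.08 on stathmin-carrying arrays. The epithelial list, with 6 of 8 genes tested, lay at -1.07 to -0.24 on stathmin-lacking and at -1.42 to 0.65 on stathmin-carrying arrays. Krt7, a keratin of simple epithelia, differed by -1.10 (adjusted p = 0.745 in limma), and no gene passed in these lists or in those of lymphoid, cartilage, muscle, neuronal and endothelial markers. The ranges per array overlapped. For stathmin loss the median difference was -0.24 in the macrophage and blood list (1 of 11 above 0) and -0.39 in the epithelial list (0 of 6 above 0). For p27 loss the medians were 1.02 (10 of 11 above 0) and -0.56 (1 of 6 above 0). In the fibroblast list the median stathmin difference was 0.02, with 7 of 12 above 0. The part of these cell types in the differences of the 6 genes was not tested. In RNA of whole cultures, fewer cells of a type and less RNA per cell cannot be told apart.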

How the data were processed

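The deposited scanner files of 15 arrays hold spot intensities and local backgrounds; per the file headers, Agilent Feature Extraction 9.1.3.1 wrote them and subtracted no background. They also hold a deposited log10 ratio of dye-normalised Cy5 over Cy3. The authors' deposited value table holds log2 ratios whose normalization is not given in the sources used here; it correlated with the scanner ratios at 0.947 to 0.992 per array, with column medians near 0, and both were alternatives. Direction comes from the labels: sample Cy5 over reference Cy3.

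In limma 3.58.1 (R 4.3.3) the background was removed with normexp (offset 50) and each array was normalised by loess. Outlier-marked spots were dropped and spots of one probe averaged. Testing required a Cy5 signal well above background on 3 or more arrays of some genotype. Single channels were compared after Aquantile scaling between arrays. One limma model with a mean per genotype was fitted to all 15 arrays, with two-sided moderated tests and Benjamini-Hochberg adjustment over all tested probes; the script was tested on simulated data. Arrays of one genotype are biological replicates by their labels. Precision is limited by how many there are.

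The 6 genes, the contrasts and the lists were chosen with earlier results of these data known. Named besides the 6 were Stmn1, Cdkn1b, the 6 positional neighbours with the smallest p, the 3 probes most alike, and at most 2 genes a list, of which one gene that met the rule is not reported here; other genes named in small counts, in the Rpl11-like probe, at the 2 Mb limit and in marker lists were chosen after their values were seen. Positions and names are from RefSeq (GRCm38.p6), and promoter windows were found for all 6 genes. Letters of the probes were not used here.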

Additional observations from a re-analysis of the deposited data

Results flagged for a closer look

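In groups of 4 arrays, 1 array stood apart from the other 3 by most of the group's range in 7 of 99 groups looked at for the 11 probes (3 measures each); chance alone gives about 1 in 20. In log2 signal, the reference channel of Runx3 A_52_P666059 was 8.88 on stathmin knock-out array 3, against 9.11 to 9.12 on the others. The sample channel of Pdik1l A_52_P361219 was 9.06 on stathmin knock-out array 1, against 8.63 to 8.68. The sample channel of the bright Rpl11 probe A_51_P394524 was 18.75 on wild type array 1, against 18.35 to 18.40, and that of Mtfr1l A_51_P453715 was 14.26 on wild type array 2, against 13.83 to 13.88. The reference channel of Pdik1l A_52_P18229 was 10.61 on p27 knock-out array 4, against 10.75 to 10.77. In log2 ratio, Mtfr1l A_51_P453715 stood at 0.19 on stathmin knock-out array 2, against -0.16 to -0.10, and Mtfr1l A_52_P33071 at 0.16 on p27 knock-out array 1, against -0.10 to -0.07. These arrays were kept in every value of the report.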

How the results depend on the processing

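Of 336 stathmin differences of the 11 probes under the alternatives, 328 moved by less than the SD of the arrays; none of the 336 p27 differences was called in limma, and 15 had the other sign. Of the stathmin differences 26 had the other sign, 22 of them at Fuca1 A_52_P179640, Mtfr1l A_52_P33071 and Runx3 A_51_P494992, which lay within 0.05 of 0. Apart from single channels, the stathmin difference of the bright Rpl11 probe stayed within -1.77 and -1.55, and that of the brighter Pdik1l probe within 1.21 and 1.47. The other 4 were in the reference channel alone: 1.13 for Rpl11 A_51_P394524, 0.023 for Pdik1l A_52_P361219, -0.0218 for Mtfr1l A_51_P453715 and -0.0812 for Fuca1 A_51_P108757. Leaving out arrays in turn, the stathmin calls over all probes were 2 to 5 (5 without stathmin knock-out replicate 1), those of stathmin knock-out against wild type 1 to 3 (1 without wild type replicate 1, 2 or 3 or stathmin knock-out replicate 3), and those of double against p27 knock-out 1 to 2 (2 without stathmin knock-out replicate 1 or wild type replicate 4). The p27 calls were 0 to 2 and the interaction calls 0 to 1, above 0 without stathmin knock-out replicate 1 and, for the interaction, replicate 4. The scanner ratio and the authors' deposited table gave 5 stathmin calls, with Pdik1l and the Rpl11-like probe added, and 2 for double against p27 knock-out, with Rpl11 added. Array weights gave 8, 13 (with Asap3 and Fuca1), 2 and, for the interaction, 2. A slide block gave 2 for double against p27 knock-out, and so did the replicate block; replicate numbers did not pair the arrays (residual r of -0.261 to 0.414, 12 of 21 pairs over 0.1). Stathmin calls and those of stathmin knock-out against wild type were 1 and 1 in the sample channel, 1 and 1 in the reference channel (with 1 for p27), and 1 and 1 with the brightest probe of each gene, which gave 0 for double against p27 knock-out, as did a robust variance trend. With the arrays of the compared genotypes only, they were 1 for stathmin knock-out against wild type and 0 for double against p27 knock-out. The brightest-probe setting kept Stmn1 A_51_P495641 and so left out A_52_P319161, the Stmn1 probe called in the main fit. The cause of the other changes was not tested. Between stathmin-lacking and stathmin-carrying arrays, no alternative called any gene within 2 Mb of Stmn1 other than Stmn1 and the 6 described. The other contrasts were not counted in this way.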
